A study of Mus musculus with 6 samples.

Results

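The nuclear genes for the subunits of the mitochondrial respiratory chain and ATP synthase were examined in mouse pancreatic tumour cells after knockdown of Pthlh, which encodes the secreted hormone PTHrP. Members were taken by gene symbol: the Nduf genes of complex I without the assembly factors named Ndufaf, Sdha to Sdhd of complex II, the Uqcr genes of complex III, the Cox4 to Cox8 genes of complex IV and the Atp5 genes of complex V. Rows named as pseudogenes were left out, and a member needed at least 1 TPM (transcripts scaled to 1000000 per library) in at least 2 of the 6 libraries. Of 24493 rows in the table, 84 carried such a name, and 78 of these passed; 11549 rows passed the same filter in all. The 6 rows below it were Cox4i2, Cox6a2, Cox6b2, Cox7b2, Cox8c and Ndufa4l2. All libraries came from KPCY cells of C57BL/6 background, pancreatic tumour cells from a mouse model with a yellow lineage label. The groups carried a non-targeting short hairpin (shNT), shPthlh oligo #1 (here hairpin 1) or shPthlh oligo #2 (hairpin 2), with 2 libraries each and no untransduced group. The labels describe the material both as cells sorted from tumours in vivo and as cells kept in DMEM and transduced, and the series design speaks of a pair of parental clones without tying any library to a clone. Whether the replicates were grown or collected apart is not stated, so a p-value here speaks for the variation among these 6 libraries alone, some of which may be technical.

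Oxidative phosphorylation moves electrons from NADH (through complex I) and from succinate (through complex II, which is also an enzyme of the citric acid cycle) to complex III, cytochrome c and complex IV, where oxygen is reduced. Complexes I, III and IV pump protons across the inner mitochondrial membrane, and complex V, the ATP synthase, uses the gradient to make ATP. Most subunits are encoded in the nucleus, and a small set that includes much of the proton-pumping core is encoded in mitochondrial DNA; that set was not analysed here. Several subunits exist as isoforms of muscle, heart, lung or testis beside a form made in most tissues.

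The targeted gene was checked first. Pthlh stood at 0.752 and 0.966 TPM in shNT, at 0 and 0.106 with hairpin 1 and at 0.0423 and 0.263 with hairpin 2, so the hairpin libraries were all below both controls. In a fit without the TPM filter, which Pthlh did not pass, its log2(TPM + 1) changed by -0.76 (SE 0.10, limma adjusted p 0.012) with knockdown, by -0.82 (adjusted p 0.0084) with hairpin 1 and by -0.69 (adjusted p 0.058) with hairpin 2. The 7 markers of ductal and tumour epithelium summed to 3759 to 4456 TPM per library. Marker sums of other cell types were 1.33 to 2.86 TPM for myeloid cells, 0.995 to 1.72 for lymphocytes, 0.286 to 0.522 for fibroblasts, 0.0282 to 0.129 for endothelium, 11.9 to 20.1 for acinar cells and 0.907 to 2.00 for erythroid cells, and the 4 islet markers were at 0 in all libraries. The deposited values are TPM, which keep no record of read number, so sequencing depth is unknown for all 6.

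The shNT libraries differed from each other in these genes more than either hairpin pair did, which bears on every comparison with shNT. The 78 members summed to 15765 TPM in shNT replicate 1 and 22118 TPM in shNT replicate 2, against 24230 and 25074 TPM for hairpin 1 and 22547 and 23232 TPM for hairpin 2. Replicate 1 of shNT was the lowest of the 6 libraries for 67 of the 78 members, while it was lowest for 29.5% of all genes tested. Its median difference from shNT replicate 2 was -0.37 on the log2(TPM + 1) scale over the members and -0.00 over the other genes; the median differences within hairpin 1 and hairpin 2 were both -0.04 over the members. The size of the difference went with transcript length up to 4000 bases. Over the 9 members with transcripts under 500 bases the median difference of the shNT libraries was -1.10, over the 28 members of 500 to under 750 bases -0.45 and over the 12 of 750 to under 1000 bases -0.39. It was -0.17 over the 22 of 1000 to under 2000 bases and -0.05 over the 6 of 2000 to under 4000 bases, while the 1 member of 4000 bases or more, Atp5g1, went against this order at -0.35. Other genes under 500 bases differed by -0.25 and those of 2000 to under 4000 bases by 0.01. The members' transcripts are short, with a median of 764 bases against 2815 bases for all genes tested. Spearman's rho between length and the replicate difference over the 78 members was 0.58 for shNT, 0.17 for hairpin 1 and -0.02 for hairpin 2, given as a description because genes of a library are not independent replicates. The Mir6236 entry, grouped here by its name with the small-RNA entries, held 34.1% of the total in shNT replicate 1 and 19.7% to 24.3% in the other libraries. With small-RNA entries left out of the total, the members' share of TPM was 2.41% in shNT replicate 1, 2.94% in shNT replicate 2 and 2.97% to 3.14% in the hairpin libraries. What set this library apart was not tested.

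**Figure D1:**
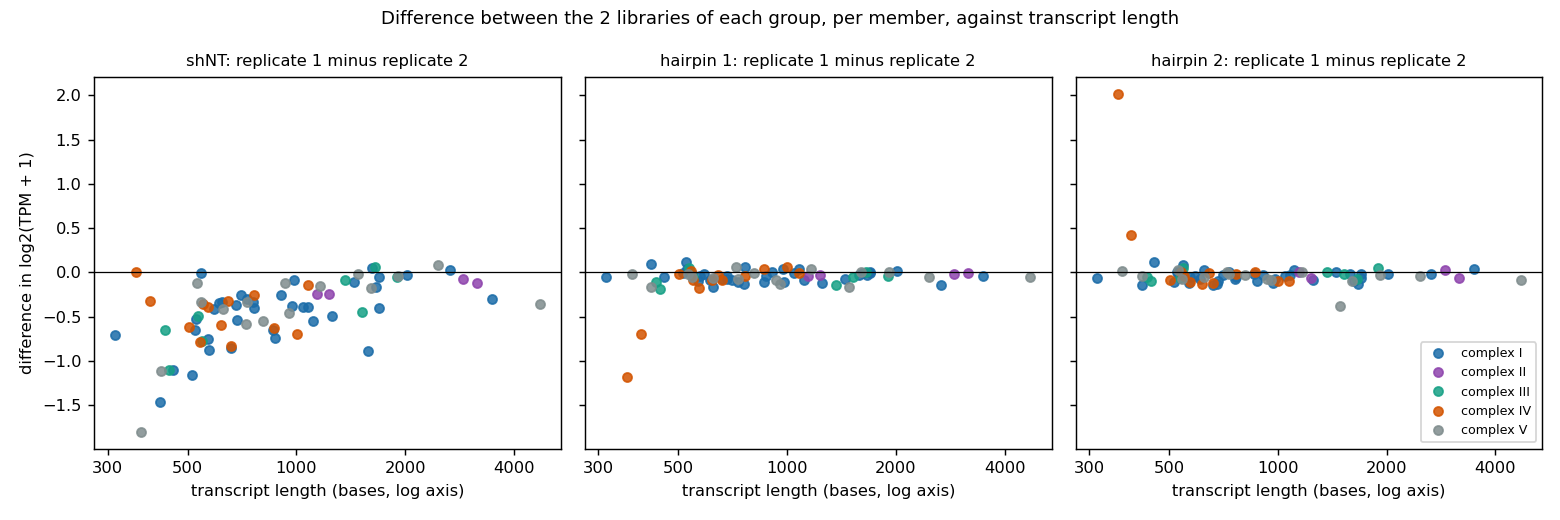
Difference in log2(TPM + 1) between replicate 1 and replicate 2 of each group (vertical axis) for each of the 78 members against transcript length in bases (horizontal log axis), coloured by complex. In shNT the short transcripts lie furthest below 0 (median -1.10 under 500 bases), while both hairpin pairs centre near 0 (median -0.04 each), apart from Cox7a1 and Cox8b.

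TPM is scaled by transcript length, so genes can be set side by side. The gap between the shNT libraries that went with length still enters each shNT mean given here. Median transcript length ran from 618 bases in complex IV to 2066 bases in complex II, so ranks of genes and complexes are uncertain. Among members, the mean in shNT ran from 0 TPM (Cox8b) to 1038 TPM (Cox4i1, a nuclear-encoded subunit of complex IV), with a median of 155 TPM. The median member stood at 123 TPM in complex I, 109 TPM in complex II, 192 TPM in complex III, 374 TPM in complex IV and 380.1 TPM in complex V. The highest shNT means of the other complexes belonged to Ndufa4 (646 ± 110.1 TPM, SD, n = 2), Sdha (118 ± 4.2), Uqcr11 (319 ± 165) and Atp5b (715 ± 14.1). Ndufa4 carries a complex I name and was later found as a subunit of complex IV; Uqcr11 is a small subunit of complex III, and Atp5b is the catalytic beta subunit of ATP synthase. The spread of Uqcr11 came from 203 and 436 TPM in the shNT libraries, so its rank over Uqcrb (301 ± 71.1 TPM) lay within the replicate spread. Summed complex I genes stood at 4561 and 6405 TPM in shNT, at 7400 and 7628 with hairpin 1 and at 6766 and 7020 with hairpin 2. Summed complex II genes stood at 409 and 459 TPM, 489 and 497 TPM, and 461 and 467 TPM in the same order. Complex III summed to 1185 and 1791 TPM in shNT, to 1912 and 2010 with hairpin 1 and to 1802 and 1850 with hairpin 2, and complex V to 5285 and 7428, 7812 and 8072, and 7494 and 7667 TPM. Every hairpin library was above both shNT libraries in the sums of complexes I, II, III and V. For complex IV, hairpin 2 replicate 1 (6024 TPM) was just below shNT replicate 2 (6035 TPM).

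**Figure D2:**
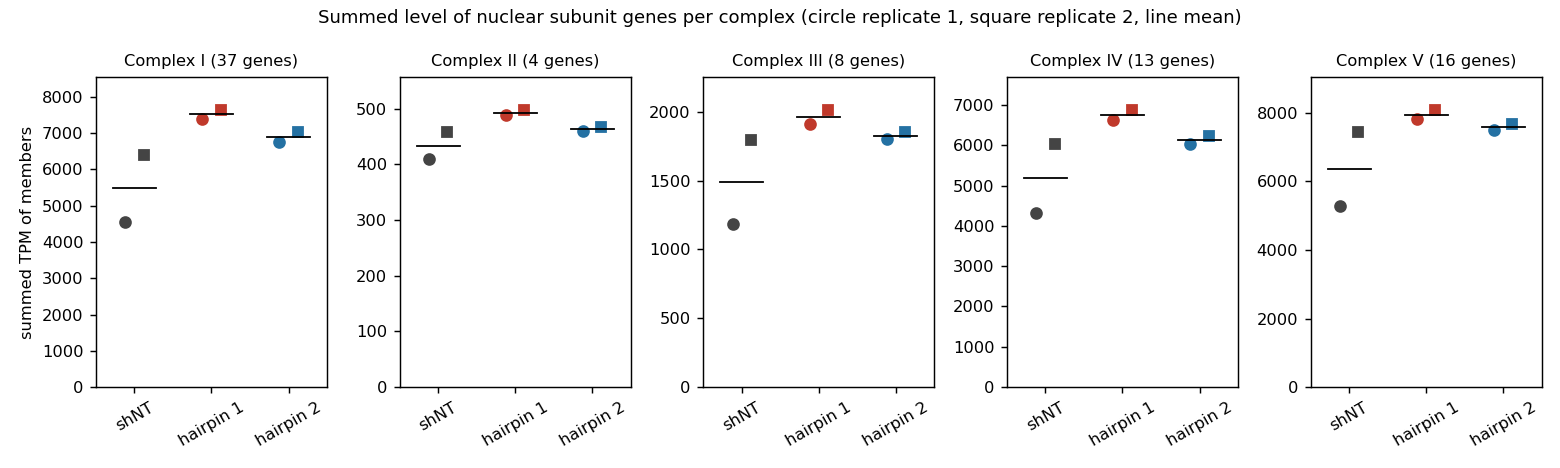
Summed TPM of the members of each complex (vertical axes from 0) in each library by group; circles are replicate 1, squares replicate 2 and lines group means. Replicate 1 of shNT is the lowest library in all 5 panels, and shNT replicate 2 lies close to the hairpin 2 libraries.

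Promoters of respiratory chain genes are known for sites of nuclear respiratory factor 1 (NRF1), of the ETS factor GABP (also called NRF2) and of YY1. RefSeq promoter windows on GRCm38.p6, from 250 bases before to 50 after the start site, were found for 65 of the 78 members. The letters GCGCANGCG (NRF1) occurred on either strand in 19 of 65 member windows (29.2%), in 14.8% of 8821 windows of other tested genes and in 6.5% of all 27025 windows. The letters CCGGAAG (ETS) occurred in 15 member windows (23.1%), in 20.5% of other tested windows and in 9.2% of all windows. The letters AAGATGG (YY1) occurred in 9 member windows (13.8%), in 7.7% of other tested windows and in 6.4% of all windows. At least 1 of the 3 was found in 36 member windows (55.4%), 37.0% of other tested windows and 19.8% of all windows. Adjacent matches that overlap, such as an NRF1 match read on both strands, were counted in the window once. Shown here are the 170 bases before the RefSeq start of 5 members, 1 for each complex, which hold at least 1 of these matches and whose levels are given with their complexes; matching letters are in capitals, read 5′ to 3′ on the gene's strand.
Ndufb7 (chr8:83566588-83566757, plus strand): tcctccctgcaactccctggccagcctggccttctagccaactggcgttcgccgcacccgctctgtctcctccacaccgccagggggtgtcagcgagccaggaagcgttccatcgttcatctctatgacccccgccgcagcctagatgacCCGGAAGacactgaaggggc
Sdha (chr13:74350241-74350410, minus strand): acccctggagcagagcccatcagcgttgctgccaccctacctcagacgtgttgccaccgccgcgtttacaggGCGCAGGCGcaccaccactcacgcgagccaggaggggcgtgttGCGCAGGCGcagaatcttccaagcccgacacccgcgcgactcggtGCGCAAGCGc
Uqcr11 (chr10:80406822-80406991, minus strand): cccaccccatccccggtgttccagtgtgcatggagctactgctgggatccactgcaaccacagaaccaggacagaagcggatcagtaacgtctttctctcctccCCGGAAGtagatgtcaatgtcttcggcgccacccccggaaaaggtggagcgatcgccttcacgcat
Cox6a1 (chr5:115348959-115349128, minus strand): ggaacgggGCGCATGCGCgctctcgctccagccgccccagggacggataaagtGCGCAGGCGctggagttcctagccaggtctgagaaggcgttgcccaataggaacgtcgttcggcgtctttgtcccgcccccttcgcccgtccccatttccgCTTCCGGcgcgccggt
Atp5h (chr11:115419920-115420089, minus strand): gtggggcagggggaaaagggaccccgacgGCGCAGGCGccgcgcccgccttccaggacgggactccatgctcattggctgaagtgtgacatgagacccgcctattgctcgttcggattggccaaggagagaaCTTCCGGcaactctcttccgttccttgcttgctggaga
The Sdha stretch holds 3 NRF1 matches. Cox6a1 has 3 NRF1 matches, of which a pair overlap in 1 run of capitals, followed by an ETS match on the opposite strand (CTTCCGG). Atp5h holds an NRF1 match and an ETS match on the opposite strand, and Ndufb7 and Uqcr11 an ETS match each; an NRF1 match of Uqcr11 runs across the start and is not marked. A match is a run of letters and not a measured binding site. Members without a window included Uqcrc2, Uqcrq, Uqcrb, Cox6c, Ndufa2, Atp5f1, Ndufs1, Cox4i1, Atp5s, Ndufb9, Sdhc and Atp5a1.

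The first comparison, knockdown (the mean of both hairpin group means) against shNT, asked how the subunit genes changed when Pthlh was lowered. Genes of all 5 complexes were among those that rose, among them Ndufv2 and Ndufa9 (complex I), Sdha (II), Uqcrc2 (III), Cox7a1 and Cox6a1 (IV) and Atp5g1 and Atp5b (V), with log2 changes from 0.18 to 1.43. Of the 78 members, 27 rose and 0 fell at a limma adjusted p under 0.05, beside 27.3% and 12.1% of all genes tested. On the deposited scale the share of members that rose (27 of 78) was thus near that of all genes. The members' median log2 change was 0.34 against 0.10 over all genes. In bulk RNA, fewer cells of a type and less RNA per cell cannot be told apart. All 4 hairpin libraries were above both shNT libraries for 41 of 78 members (30.3% of all genes), and below both for 1, Uqcrc1 (10.4% of all genes). Without shNT replicate 1, where shNT is a lone library assumed to vary like the other groups, the median member change was 0.13 against 0.08 over all genes. In that fit 28 members rose and 6 fell, beside 23% and 10.6% of all genes; 25 of the 27 rises were among the 28. By complex, that fit gave rises and falls of 16 and 1 in complex I, 1 and 0 in II, 2 and 0 in III, 3 and 2 in IV, and 6 and 3 in V, with medians of 0.16, 0.05, 0.12, 0.09 and 0.10. The 6 that fell were Ndufa8, Cox7a2, Cox8a, Atp5c1, Atp5k and Atp5l, named after their values were seen. Without shNT replicate 2 instead, 68 members rose and 1 fell, beside 30.2% and 12.2% of all genes, with a median of 0.58 against 0.10. Leaving out 1 hairpin library gave 10 to 13 rises, beside 15.5% to 16.9% of all genes. After the trend with transcript length was removed from each library, 20 members rose and 7 fell, beside 17% and 19% of all genes, with a median of 0.12 against 0.01. Median-ratio scaling gave 17 and 2, beside 15.1% and 18.7% of all genes, with medians of 0.24 and 0.01. With the small-RNA entries left out of the total, the median of all genes shifted by -0.14 and the members stood 0.23 above it, against 0.24 above it on the deposited scale. There, without those entries, 23 members rose and 4 fell, beside 8.33% and 16.8% of all genes. After each library was centred on the median of each chromosome's genes, 7 members rose and 0 fell, beside 11.3% and 13.8% of all genes, with a median of 0.26 against -0.00. The 7 were Ndufa10, Ndufb7, Ndufb10, Ndufb11, Ndufv3, Cox7a1 and Atp5g1. With all 4 hairpin libraries pooled as 1 group, limma called 0 members, beside 0% of all genes higher and 0.00866% lower. That fit called almost no gene of any kind.

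**Figure D3:**
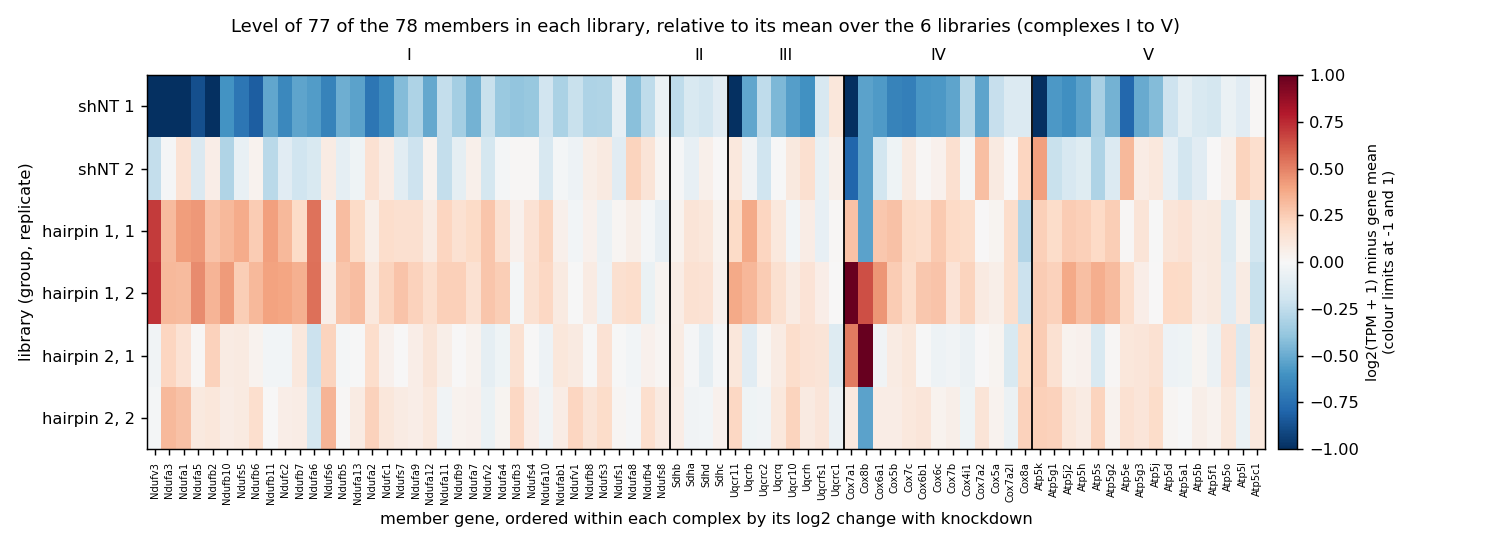
Level of 77 of the 78 members (columns, grouped by complexes I to V) in each library (rows), as log2(TPM + 1) minus the mean of the gene over the 6 libraries, with colours limited at -1 and 1. The row of shNT replicate 1 is low for most members (lowest of the 6 for 67 of the 78), and hairpin 1 replicate 2 is the highest library for 38 of the 78.

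**Figure D4:**
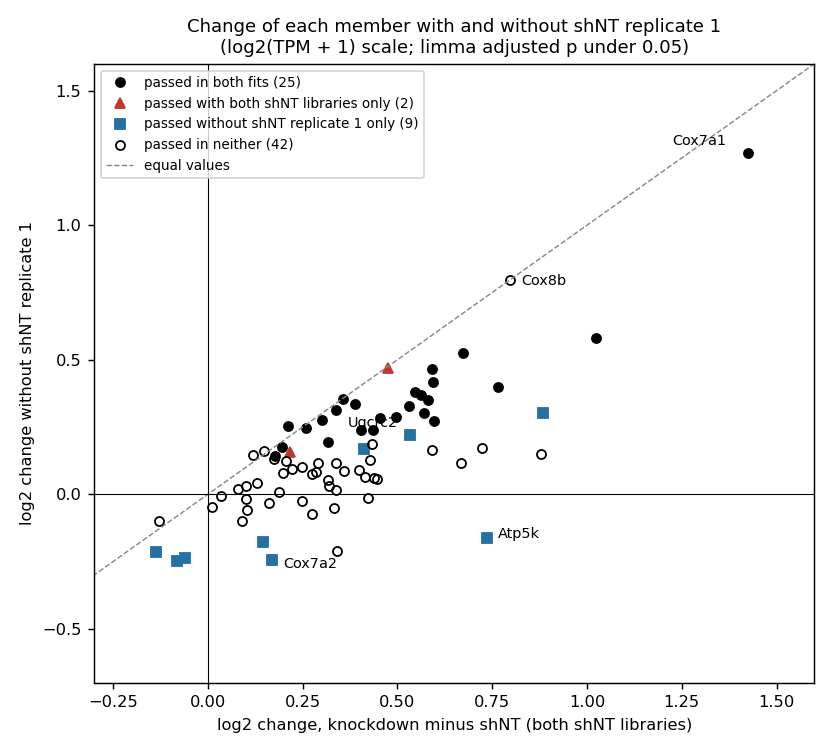
Log2 change of each member with knockdown when both shNT libraries are used (horizontal axis) and when shNT replicate 1 is left out (vertical axis); symbols mark the limma calls at an adjusted p under 0.05. Most points lie below the line of equal values; 25 members passed in both fits, 2 passed with both shNT libraries alone, 9 without shNT replicate 1 alone, and 42 in neither.

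Complex I, which oxidises NADH, had 37 members, of which 15 rose and 0 fell with knockdown (median log2 change 0.39). Of all genes tested 27.3% rose and 12.1% fell. Of its 7 core subunits, conserved from bacteria and together carrying the flavin and iron-sulfur centres, 2 rose (median 0.16); of its 29 accessory subunits 13 rose (median 0.43). The core transcripts were longer (median 1623 bases against 704 bases), and replicate 1 of shNT stood at a median of 94.4% of replicate 2 for the core and 70.7% for the accessory genes. Ndufv2 (chromosome 17, 66078638 to 66101559, minus strand, mm10), a core iron-sulfur subunit of the NADH-oxidising arm, stood at 60.9 and 63.1 TPM in shNT, at 86.9 and 86.9 with hairpin 1 and at 67.0 and 67.9 with hairpin 2. The groups did not overlap, and Ndufv2 rose by 0.30 (SE 0.04, limma adjusted p 0.0034). After chromosome centring its change was 0.09 (adjusted p 0.15). Ndufa9 (chromosome 6, 126821721 to 126849136, minus strand), an accessory subunit at the junction of the arms, stood at 74.5 and 80.2 TPM in shNT, at 103 and 109 with hairpin 1 and at 97.3 and 96.9 with hairpin 2. It rose by 0.39 (SE 0.05, adjusted p 0.0035), with all 4 hairpin libraries above both controls; the hairpins differed by -0.13 (adjusted p 0.11). Ndufa11 (chromosome 17, 56717767 to 56722141, plus strand), an accessory subunit of the membrane arm, stood at 15.4 and 15.4 TPM in shNT, at 21.5 and 21.8 with hairpin 1 and at 19.2 and 17.9 with hairpin 2. The change of 0.36 (SE 0.04, adjusted p 0.0037) was 0.07 (adjusted p 0.66) once the length trend was removed. Ndufb11 (chromosome X, 20615326 to 20617619, minus strand), an accessory subunit of the membrane arm, stood at 72.2 and 86.2 TPM in shNT, at 138 and 138 with hairpin 1 and at 102 and 104 with hairpin 2. It rose by 0.59 (SE 0.07, adjusted p 0.0039) without overlap of the groups. Ndufa10 (chromosome 1, 92439010 to 92473860, minus strand), an accessory subunit of the membrane arm, stood at 99.8 and 102 TPM in shNT, at 133 and 132 with hairpin 1 and at 109.8 and 111 with hairpin 2, and rose by 0.26 (SE 0.03, adjusted p 0.0046).

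Other genes with a complex I name showed where the control pair bore on the size. Ndufv3, named after its values were seen, stood at 46.6 and 87.2 TPM in shNT, at 168 and 171 with hairpin 1 and at 101 and 102 with hairpin 2. All hairpin libraries were above both controls; its change was 1.02 (adjusted p 0.020) with both controls and 0.58 (adjusted p 0.0015) without shNT replicate 1. Ndufb7, whose promoter stretch is shown above, stood at 187 and 235 TPM in shNT, at 308 and 345 with hairpin 1 and at 291 and 284 with hairpin 2. It rose by 0.55 (SE 0.10, adjusted p 0.012), and by 0.38 (adjusted p 0.014) without shNT replicate 1. Ndufa4 stood at 568 and 724 TPM in shNT, at 819.6 and 869.6 with hairpin 1 and at 712 and 748 with hairpin 2. Hairpin 2 overlapped the controls, and the knockdown change of Ndufa4 was 0.29 (adjusted p 0.075). Its hypoxia-inducible relative Ndufa4l2 was below the filter, between 0 and 0.272 TPM.

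Complex II, succinate dehydrogenase, had 4 members, and Sdha alone rose, beside 27.3% of all genes. Sdha (chromosome 13, 74322254 to 74350280, minus strand), the flavoprotein that oxidises succinate, stood at 115 and 121 TPM in shNT, at 141 and 143 with hairpin 1 and at 128 and 125 with hairpin 2. The groups did not overlap, and the change was 0.18 (SE 0.04, limma adjusted p 0.019). The call of Sdha was lost in 12 of 20 alternatives: the change was 0.08 (adjusted p 0.17) with median-ratio scaling, 0.08 (adjusted p 0.21) with chromosome centring and 0.10 (adjusted p 0.083) with the length trend removed. Sdhb, the iron-sulfur subunit, stood at 94.9 and 112 TPM in shNT, at 116 and 119 with hairpin 1 and at 119.8 and 119.5 with hairpin 2. Its 4 hairpin libraries were above both controls, with a change of 0.20 (SE 0.07, adjusted p 0.074). The membrane anchors Sdhc and Sdhd changed by 0.08 (adjusted p 0.23) and 0.10 (adjusted p 0.30). Complex II had the longest transcripts (median 2066 bases), and shNT replicate 1 stood at 84.6% to 95.1% of replicate 2 over its 4 members.

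Complex III, ubiquinol-cytochrome c reductase, had 8 members, of which Uqcrc2 rose and 0 fell, beside 27.3% and 12.1% of all genes. Uqcrc2 (chromosome 7, 120635176 to 120659524, plus strand), a core protein of the matrix side, stood at 56.7 and 58.9 TPM in shNT, at 78.7 and 80.9 with hairpin 1 and at 68.6 and 66.1 with hairpin 2. It rose by 0.34 (SE 0.04, limma adjusted p 0.0032), and the groups did not overlap. Its partner core protein Uqcrc1 (chromosome 9, 108936633 to 108949623, plus strand) stood at 129 and 124 TPM in shNT, at 120.0 and 119.7 with hairpin 1 and at 109 and 114 with hairpin 2. Here every hairpin library was below both controls, with a change of -0.13 (SE 0.04, adjusted p 0.055) that missed the threshold; after removal of the length trend it was -0.26 (adjusted p 0.0099). Uqcrfs1, the Rieske iron-sulfur protein that carries electrons to cytochrome c1, stood at 98.2 and 104 TPM in shNT, at 104 and 115 with hairpin 1 and at 120.3 and 119.6 with hairpin 2, a change of 0.18 (adjusted p 0.051). The 5 small subunits changed by 0.33 to 0.67, and 0 of them passed. Uqcr11 stood at 203 and 436 TPM in shNT, at 464 and 527 with hairpin 1 and at 438 and 468 with hairpin 2; its change of 0.67 (SE 0.29, adjusted p 0.12) became 0.12 (adjusted p 0.29) without shNT replicate 1. Uqcrb, which helps to bind ubiquinone, stood at 250.5 and 351 TPM in shNT, at 467 and 451 with hairpin 1 and at 332 and 348 with hairpin 2. Hairpin 1 alone was above both controls, and the knockdown change was 0.41 (SE 0.13, adjusted p 0.056).

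Complex IV, cytochrome c oxidase, had 13 members, of which Cox7a1 and Cox6a1 rose and 0 fell, beside 27.3% and 12.1% of all genes. Cox7a1 (chromosome 7, 30184144 to 30186078, plus strand), the isoform of heart and skeletal muscle, stood at 3.47 and 4.56 TPM in shNT, at 10.8 and 18.1 with hairpin 1 and at 12.8 and 9.32 with hairpin 2. Every hairpin library was above both controls, and the change was the largest among members in this fit: 1.43 (SE 0.23, limma adjusted p 0.0078). It was called with hairpin 1 (1.59, adjusted p 0.0053) and with hairpin 2 (1.26, adjusted p 0.046), the latter at an adjusted p of 0.090 without shNT replicate 1. Its common counterpart Cox7a2 stood at 104 and 186 TPM in shNT, at 151 and 160.5 with hairpin 1 and at 151 and 164 with hairpin 2. All hairpin libraries lay between the controls, and the change of 0.17 (adjusted p 0.56) turned to -0.25 (adjusted p 0.034) without shNT replicate 1. Cox8b, another isoform of heart and skeletal muscle, was listed at 0 in 4 libraries and at 1.26 TPM in hairpin 1 replicate 2 and 3.04 TPM in hairpin 2 replicate 1. Cox6a2, also of muscle, was below the filter at 0.536 and 0.385 TPM in the same pair of libraries and at 0 in the others. The summed level of 5 muscle markers (Acta1, Ckm, Myh4, Tnnt3 and Mb) was 0.299 and 0.201 TPM in shNT, at 1.57 and 3.81 with hairpin 1 and at 9.01 and 0.435 with hairpin 2, so it was highest in those libraries as well. In hairpin 2 replicate 2 the muscle markers were near the control level while Cox7a1 stood at 9.32 TPM. The part of muscle RNA in the Cox7a1, Cox8b and Cox6a2 values was not tested.

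The common subunits of complex IV were far higher. Cox6a1 (chromosome 5, 115345642 to 115348981, minus strand), the common form of subunit VIa, stood at 632 and 827 TPM in shNT, at 1132 and 1274 with hairpin 1 and at 914 and 987 with hairpin 2. The groups did not overlap, and Cox6a1 rose by 0.56 (SE 0.12, limma adjusted p 0.018). Cox5b, a zinc-binding subunit, stood at 294 and 454 TPM in shNT, at 574 and 558 with hairpin 1 and at 496 and 493 with hairpin 2, a change of 0.53 (SE 0.17, adjusted p 0.052). Cox4i1 stood at 946 and 1129.6 TPM in shNT, at 1299.8 and 1335 with hairpin 1 and at 1098 and 1109.6 with hairpin 2. Hairpin 2 lay between the controls, and the change of Cox4i1 was 0.22 (adjusted p 0.084). Its relative Cox4i2, the isoform of lung and of hypoxic cells, was below the filter at 0 to 0.620 TPM. Cox6b1 changed by 0.43 (adjusted p 0.089), while its testis isoform Cox6b2 and the testis isoform Cox8c were at 0 in all libraries. Cox8a (chromosome 19, 7215153 to 7217616, minus strand), the common form of subunit VIII, stood at 591 and 755 TPM in shNT, at 530.4 and 561 with hairpin 1 and at 741 and 764 with hairpin 2. Hairpin 1 was below both controls and hairpin 2 was not; the knockdown change was -0.06 (adjusted p 0.67).

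Complex V, the ATP synthase, had 16 members, of which 8 rose and 0 fell, beside 27.3% and 12.1% of all genes. The c ring, the rotor that protons turn, is encoded by 3 genes for the same mature protein. Atp5g1 (chromosome 11, 96068852 to 96075670, minus strand) stood at 95.3 and 122 TPM in shNT, at 162 and 167 with hairpin 1 and at 158 and 167 with hairpin 2, and rose by 0.60 (SE 0.10, limma adjusted p 0.0088). Both hairpins were above both controls; the difference between them was -0.02 (95% interval -0.31 to 0.27, adjusted p 0.92). Atp5g2 (chromosome 15, 102662864 to 102672352, minus strand) stood at 487 and 616 TPM in shNT, at 799 and 842 with hairpin 1 and at 681 and 691 with hairpin 2, and rose by 0.45 (SE 0.10, adjusted p 0.019). Atp5g3 stood at 396 and 592 TPM in shNT, at 613 and 587 with hairpin 1 and at 609 and 609 with hairpin 2. The hairpin libraries were near shNT replicate 2, and the change was 0.32 (adjusted p 0.15), or 0.03 (adjusted p 0.55) without shNT replicate 1. Of the F1 head, the beta subunit Atp5b stood at 705 and 725 TPM in shNT, at 833 and 830.3 with hairpin 1 and at 797 and 814 with hairpin 2. It rose by 0.19 (SE 0.05, adjusted p 0.024), and the groups did not overlap. Its call was lost in 12 of 20 alternatives, in which the change of Atp5b went down to 0.028 (adjusted p 0.77, quantile normalization). The gamma subunit Atp5c1 (chromosome 2, 10056016 to 10080510, minus strand), the central stalk, stood at 237 and 264 TPM in shNT, at 207 and 201 with hairpin 1 and at 254 and 253 with hairpin 2. Hairpin 1 was below all other libraries; the knockdown change was -0.14 (adjusted p 0.095).

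In the stator and membrane part of ATP synthase, Atp5j2 (chromosome 5, 145183698 to 145192062, minus strand), subunit f of the membrane part, stood at 495 and 680.3 TPM in shNT, at 903 and 986 with hairpin 1 and at 776 and 822 with hairpin 2. It rose by 0.58 (SE 0.13, limma adjusted p 0.021) without overlap of the groups. Atp5h, subunit d of the stator, whose promoter stretch is shown above, stood at 263 and 351 TPM in shNT, at 451 and 469.8 with hairpin 1 and at 393 and 405 with hairpin 2, and rose by 0.50 (SE 0.12, adjusted p 0.022). Atp5o, the oligomycin sensitivity protein of the stator, stood at 334 and 363 TPM in shNT, at 321 and 324 with hairpin 1 and at 387 and 379 with hairpin 2, a change of 0.01 (adjusted p 0.86). The widest gap between controls among members was in Atp5k, the small subunit e, named after its values were seen. It stood at 301 and 1049 TPM in shNT, at 933 and 942 with hairpin 1 and at 940.4 and 929.6 with hairpin 2. The 4 hairpin libraries were close to each other and below shNT replicate 2; the change was 0.74 (SE 0.47, adjusted p 0.25) with both controls and -0.16 (adjusted p 0.016) without shNT replicate 1. Many of these genes have processed pseudogenes of near-identical sequence, and how reads shared with them were assigned is not given in the sources used here, so single levels are uncertain to that extent.

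**Figure D5:**
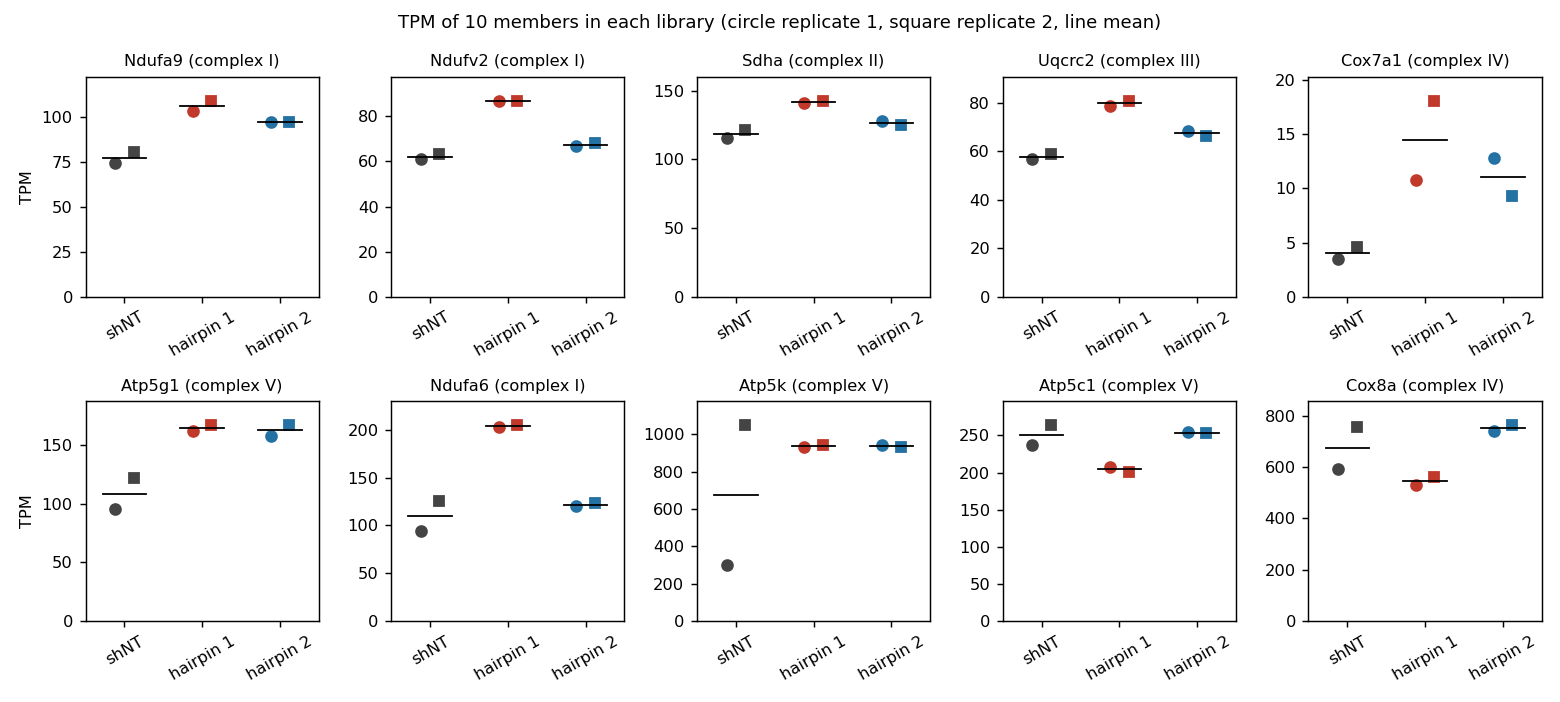
TPM of 10 members (vertical axes from 0) in each library by group; circles are replicate 1, squares replicate 2 and lines group means. Ndufa9, Ndufv2, Sdha, Uqcrc2, Cox7a1 and Atp5g1 have every hairpin library above both controls, Ndufa6, Atp5c1 and Cox8a separate hairpin 1 from the other libraries, and Atp5k has the widest control pair (301 and 1049 TPM).

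Each hairpin was next compared with shNT on its own; both comparisons use the same shNT libraries. With hairpin 1, 34 of 78 members rose and 1 fell (Atp5c1), beside 32.1% and 18.1% of all genes, with a median change of 0.37 against 0.11 over all genes. The rises were 18 in complex I, 1 in II, 2 in III, 5 in IV and 8 in V. Without shNT replicate 1, 38 rose and 8 fell, beside 31% and 17.8% of all genes, with a median of 0.20 against 0.09. Without shNT replicate 2, 69 rose and 1 fell, beside 34.9% and 18.6% of all genes. Without hairpin 1 replicate 1, 17 rose and 0 fell, beside 19.3% and 13.2% of all genes, and without hairpin 1 replicate 2, 10 rose and 0 fell, beside 20.4% and 12.2%. With hairpin 2, 7 rose and 0 fell, beside 6.62% and 3% of all genes, with a median change of 0.29 against 0.09. The 7 were Ndufa9, Ndufa11, Ndufb10, Ndufb11, Uqcrc2, Cox7a1 and Atp5g1. Without shNT replicate 1, 6 rose and 2 fell with hairpin 2, beside 5.89% and 2.46% of all genes, and the median was 0.08 over the members as over all genes; Ndufa9, Ndufb10, Ndufb11 and Atp5g1 were among the 6. Without shNT replicate 2, 62 rose and 1 fell, beside 18.1% and 4.87% of all genes. Without any 1 of the hairpin libraries 0 members passed, beside 6 to 46 of all 11549 genes that rose (0.0520% to 0.398%). In 0 members were the calls of the hairpins opposite in direction.

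The direct comparison of hairpin 2 with hairpin 1 does not use the level of the shNT libraries, apart from their part in the shared estimate of the spread. Of 78 members, 3 were higher and 9 lower with hairpin 2, beside 19.9% and 20.2% of all genes, and the median difference was -0.14 against -0.01. Leaving out any 1 hairpin library left 0 higher and 2 to 3 lower, beside 10.2% to 11.8% and 9.89% to 11.3% of all genes. In a fit of those 4 libraries alone, 10 were higher and 35 lower, beside 23.7% and 25.2% of all genes. The 9 lower were Ndufa6, Ndufb11, Ndufv2, Ndufa10, Ndufa11, Sdha, Uqcrc2, Cox7a2l and Atp5a1, and the 3 higher were Cox8a, Atp5c1 and Atp5o. Ndufa6 (chromosome 15, 82350140 to 82354322, minus strand), an accessory subunit of complex I, stood at 94.3 and 125 TPM in shNT, at 203 and 205 with hairpin 1 and at 120.0 and 123 with hairpin 2. Its difference between hairpins was the largest that passed, -0.74 (SE 0.13, limma adjusted p 0.0080), and hairpin 2 lay between the controls. Ndufv2 differed by -0.36 (adjusted p 0.0021) and Ndufb11 by -0.41 (adjusted p 0.014), with hairpin 2 between the controls and hairpin 1 in level. Cox7a2l stood at 135 and 149 TPM in shNT, at 168 and 168 with hairpin 1 and at 133 and 143 with hairpin 2. Its difference between hairpins was -0.28 (limma adjusted p 0.019). Uqcrb differed by -0.43 (adjusted p 0.073). On the higher side, Cox8a differed by 0.46 (SE 0.12, adjusted p 0.028), Atp5c1 by 0.31 (SE 0.06, adjusted p 0.013) and Atp5o by 0.25 (SE 0.06, adjusted p 0.020). These 3 genes lie on chromosomes 19, 2 and 16. Among chromosomes that carry a member, these had the highest median differences between hairpins over all their tested genes (0.17, 0.28 and 0.27). After each library was centred on the median of each chromosome's genes, 0 of 78 members were higher and 6 lower, beside 18.4% and 15.6% of all genes; Cox8a differed by 0.32 (adjusted p 0.076), Atp5c1 by 0.06 (adjusted p 0.52) and Atp5o by -0.04 (adjusted p 0.62).

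Genes that work with the subunits were described from lists of the pathway. Of 7 tested subunits and carriers that the names above leave out, Cyc1, the ADP/ATP carrier Slc25a5 and the phosphate carrier Slc25a3 rose with knockdown and 0 fell (median 0.25); without shNT replicate 1 the counts were 3 and 1 (median 0.10). Cyc1, the cytochrome c1 subunit of complex III, stood at 169 and 177 TPM in shNT, at 214 and 210.3 with hairpin 1 and at 211 and 209 with hairpin 2, and rose by 0.29 (SE 0.04, limma adjusted p 0.0049). The counts in the lists with both controls stand beside 27.3% of all genes that rose and 12.1% that fell (median 0.10), and those without shNT replicate 1 beside 23% and 10.6% (median 0.08). Of 46 assembly factors 10 rose and 0 fell (median 0.17), and without shNT replicate 1 the counts were 5 and 2 (median 0.04). Cox19, a copper-handling assembly factor of complex IV, stood at 38.4 and 34.9 TPM in shNT, at 69.2 and 68.1 with hairpin 1 and at 44.3 and 50.4 with hairpin 2, and rose by 0.62 (SE 0.07, adjusted p 0.0027). Of 78 mitochondrial ribosomal protein genes 32 rose and 3 fell (median 0.20), and without shNT replicate 1 the counts were 24 and 4 (median 0.12). Of 14 citric acid cycle enzymes 11 rose and 0 fell (median 0.24), and without shNT replicate 1 the counts were 10 and 0 with a median of 0.23. Their transcripts had a median length of 2474 bases, and the shNT libraries differed by a median of -0.00 over them. Mdh2, the mitochondrial malate dehydrogenase, stood at 279 and 281 TPM in shNT, at 368 and 383 with hairpin 1 and at 361 and 362 with hairpin 2, and rose by 0.39 (SE 0.04, adjusted p 0.0024).

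Of 11 tested regulators of respiratory chain transcription, Esrra and Tfb1m rose, Pprc1, Gabpa, Gabpb1 and Tfb2m fell, beside 27.3% and 12.1% of all genes, and the median change was -0.08. Without shNT replicate 1, 1 rose and 2 fell, beside 23% and 10.6%, with a median of -0.01; the calls of Pprc1 (-0.12, adjusted p 0.11), Gabpa (-0.18, adjusted p 0.051) and Esrra were lost. Nrf1, which gives its name to the NRF1 letters searched in the promoters, stood at 22.4 and 19.1 TPM in shNT, at 19.97 and 19.4 with hairpin 1 and at 21.0 and 20.8 with hairpin 2. The groups overlapped, with a change of -0.03 (limma adjusted p 0.79). Gabpa, the DNA-binding part of GABP, stood at 27.5 and 26.9 TPM in shNT, at 20.7 and 20.4 with hairpin 1 and at 26.6 and 27.97 with hairpin 2. It was low with hairpin 1 alone: the change was -0.39 (adjusted p 0.0019) with hairpin 1 and 0.00 (adjusted p 0.96) with hairpin 2, and the hairpins differed by 0.39 (adjusted p 0.0025). Pprc1, a coactivator of these factors, differed between hairpins by 0.62 (adjusted p 0.0014), from 34.3 and 32.4 TPM with hairpin 1 to 52.0 and 51.5 TPM with hairpin 2. Esrra, an orphan nuclear receptor of mitochondrial genes, stood at 15.8 and 19.0 TPM in shNT, at 24.3 and 25.1 with hairpin 1 and at 19.0 and 21.4 with hairpin 2; its change was 0.35 (adjusted p 0.027), and 0.22 (adjusted p 0.074) without shNT replicate 1.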

How the data were processed

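RNA was sequenced from 6 libraries, 2 per group, with groups taken from the labels. The authors deposited a gene table of TPM that sums to 1000000 per library; per the submitters' processing notes, Salmon, R 3.5, DESeq2 and the mm10 build were used, and the notes give no Salmon version. TPM was used as deposited, as log2(TPM + 1), for rows of at least 1 TPM in at least 2 libraries; this scale understates changes of low genes. All 11549 were fitted in limma 3.58.1 (R 4.3.3) with 3 group means and a trended variance prior, and p-values were adjusted by Benjamini-Hochberg over all of them. Code was tested on simulated data.

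Named genes were, per complex, those with the smallest p with knockdown and between hairpins, the highest in shNT, tissue isoforms with their common forms, and the c-ring genes; others are marked as chosen after their values were seen or are shown for their promoter. Members and lists were chosen with earlier results of these data known. Positions and transcript lengths came from GENCODE M21, which placed all 78 members and 99.4% of tested genes. Each length is that of a single annotated transcript per gene, which may not be the form expressed in these cells. Alternatives covered pseudocount, filter, scaling, small-RNA entries, variance prior, replicate block, compared groups alone, pooled hairpins, chromosome, length and GC trends, and each library left out. A single member is counted in all totals and not reported by name here.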

Additional observations from a re-analysis of the deposited data

Results flagged for a closer look

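The hairpins differed in 12 members by the direct test of hairpin 2 minus hairpin 1 (log2, limma adjusted p under 0.05). The difference was -0.74 for Ndufa6, -0.41 for Ndufb11, -0.36 for Ndufv2, -0.26 for Ndufa10 and -0.21 for Ndufa11 in complex I, -0.16 for Sdha in complex II and -0.24 for Uqcrc2 in complex III. It was -0.28 for Cox7a2l and 0.46 for Cox8a in complex IV, and -0.19 for Atp5a1, 0.31 for Atp5c1 and 0.25 for Atp5o in complex V. After chromosome centring 6 of the 9 negative differences and 0 of the 3 positive ones passed.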

How the results depend on the processing

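Comparisons with shNT rested on 2 control libraries that differed by transcript length, TPM holds no depth, and the filter, scaling and choice of libraries moved the counts of members. For knockdown the rises (27, beside 27.3% of all genes) were 17 with median-ratio scaling (15.1%), 7 with chromosome centring (11.3%) and 0 with the hairpins pooled (0%). They were 10 to 68 when 1 library was left out (15.5% to 30.2%). With quantile normalization they were 21 (15.5%), and without small-RNA entries 23 (8.33%). In the quantile and small-RNA fits the count of members thus fell by less than the share of all genes. The falls (0, beside 12.1% of all genes) were 4 with quantile normalization (18.1%) and without small-RNA entries (16.8%). They were 2 with median-ratio scaling (18.7%) and with the GC trend removed (18.1%), and 7 with the length trend removed (19.0%). They were 15 with that trend and shNT replicate 1 both left out, a choice made after seeing the data, and 0 to 6 when 1 library was left out. For hairpin 1 the rises (34, beside 32.1% of all genes) were 21 with chromosome centring (18.5%) and 10 to 69 with 1 library left out. The falls (1, beside 18.1%) were 4 with quantile normalization (23.6%), median-ratio scaling (24.3%) and the GC trend removed (24.2%). They were 3 without small-RNA entries (24.3%), 0 with chromosome centring (21.7%) and 8 with the length trend removed (24.9%). They were 16 with that trend and shNT replicate 1 removed, and 0 to 8 with 1 library left out. For hairpin 2 the rises (7, beside 6.62% of all genes) were 1 with no filter (2.04%), quantile normalization (2.04%) or no trend in the variance prior (4.09%). They were 3 without small-RNA entries (1.27%) or with the length trend removed (3.13%), and 2 with that trend and shNT replicate 1 removed. They were 0 with median-ratio scaling (2.11%), chromosome centring (1.41%), the GC trend removed (2.07%) or the compared groups alone (0.407%), and 0 to 62 with 1 library left out. The falls (0, beside 3%) were 1 with quantile normalization (4.27%), median-ratio scaling (4.80%) and the GC trend removed (4.69%). Removing the length trend gave 3 (5.98%). Between hairpins, members higher (3, beside 19.9% of all genes) were 0 with chromosome centring (18.4%) and 5 with the length trend removed (21.6%). They were 13 with that trend and shNT replicate 1 removed, 10 with the compared groups alone (23.7%), and 0 to 10 with 1 library left out. Members lower (9, beside 20.2%) were 20 (21.7%), 34 and 35 (25.2%) in the same 3 fits other than chromosome centring, and 2 to 35 with 1 library left out. A fit that leaves out 1 library assumes that the lone sample varies like the other groups. Where no share of all genes is given, the count does not speak for the members alone. The cause of these changes was not tested.

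With the replicate block, 30 members rose with knockdown (beside 25.4% of all genes), 36 with hairpin 1 (31.2%) and 0 with hairpin 2 (1.41%). Between hairpins 3 were higher (18.1%) and 9 lower (18.3%). Whether replicate numbers pair the libraries is not stated. Deviations from group means correlated at 0.02, 0.02 and -0.04 between groups, which cannot settle this with 2 libraries per group.

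Over the named members, 1984 of the alternative values stayed on the same side of the threshold, 134 newly passed it and 268 no longer did. Values that passed neither in the main fit nor in the alternative were counted among the 1984 whatever their sign. A further 10 changed sign and passed in the main fit, the alternative or both. Of these 10, Cox7a2 ran from -0.25 to 0.58 with knockdown and from -0.25 to 0.58 with hairpin 1 when 1 library was left out, the lowest without shNT replicate 1 and the highest without shNT replicate 2, and with shNT replicate 1 and the length trend removed was -0.34, -0.36 and -0.32 with knockdown, hairpin 1 and hairpin 2. With the length trend removed, Ndufa11 was -0.033 with hairpin 2 and Atp5o -0.28 with knockdown. With chromosome centring, Cox7a2l was -0.027 and Atp5o 0.18 with hairpin 1, and Atp5o -0.040 between hairpins.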
